A study of Mus musculus with 14 samples.

Results

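The genes described here encode the mitochondrial fatty acid oxidation machinery of the kidney: entry and activation of fatty acids, the carnitine shuttle, the β-oxidation enzymes, the electron carriers that receive their electrons, 1 ketone body dehydrogenase and 2 transcriptional regulators. They were chosen by symbol, with earlier results of these data known. All 34 were found among the 47729 genes listed in the count files and passed the filter that left 17926 genes for testing. Messenger RNA of whole mouse kidney was measured in 14 libraries: 4 from SMOC2 transgenic kidneys with 7 days of unilateral ureteral obstruction (UUO, closure of 1 ureter, a model of kidney fibrosis), 3 from untreated SMOC2 transgenic kidneys (called normal), 4 from wild-type (WT) kidneys with UUO, and 3 from untreated WT kidneys. No label says which promoter drives the transgene, how old the animals were or whether each library is an animal of its own, so each p-value speaks of the spread among these libraries only, and that spread may be technical.

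The labels hold a protocol that speaks of folic acid in male Balb/c mice, which differs from their genotype and treatment fields; the groups follow those fields. Levels are given as counts-per-million (CPM) of the library size after edgeR's TMM scaling. Xist, the RNA of the silenced X chromosome in female cells, had 964 to 1423 CPM in the 14 libraries, and the summed count of 4 genes on the Y chromosome was at most 2 in any library. These are values of female tissue in all 14 libraries, whereas that protocol speaks of male mice. Smoc2 itself had 123.6, 89.9, 83.9 and 87.1 CPM in SMOC2 UUO libraries and 27.8, 26.9 and 10.6 CPM in SMOC2 normal libraries, against 150.4, 130.8, 157.7 and 148.5 CPM in WT UUO and 12.6, 19.7 and 43.3 CPM in WT normal libraries. No excess of Smoc2 was thus seen in the libraries labelled SMOC2 transgenic, and "SMOC2" below means that label. Its log2 difference was −0.61 (adjusted p = 0.389, edgeR) in UUO and −0.22 (adjusted p = 0.85) in normal kidney, the second turning to 0.43 without WT normal library 3. All 15 proximal tubule markers were detected in every library, as the kidney label requires. Total counts ran from 19483994 to 30033405 per library.

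Fatty acid oxidation is the main source of ATP in the proximal tubule. Long-chain acyl-CoA is joined to carnitine by CPT1 on the outer mitochondrial membrane, carried inside by a translocase and returned to CoA by CPT2, and malonyl-CoA blocks the CPT1 step. Repeated rounds of dehydrogenation, hydration, a second oxidation and thiolysis then shorten the chain, electrons leave through the electron transfer flavoprotein, and the nuclear receptor PPARA with its coactivator PGC-1α drives many of the genes.

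Promoter sequences of 30 of the 34 genes, 33 windows from 250 bases before the annotated start, were available from RefSeq (build GRCm38.p6). A relaxed form of the direct repeat bound by PPARA with RXR, AGGNCA followed after 1 base by AGGNCA again, was in 0 of the 33 windows and in 0.338% of all 32851 promoters when both strands were searched. TNAAGGTCA, the element of estrogen-related receptors, was in 0 of the 33 and in 1.14% of all. At shares this low, 0 of 33 windows is likely for any genes, so these counts do not show that the set lacks either element. Sequence beyond the 250 bases was not searched. The shorter nuclear receptor half-site AGGTCA was searched after these 2 elements came out empty, and it is contained in the second of them. It was in 7 of 33 windows (21.2%) and in 14% of all promoters. The windows below are shown because they belong to the gene that fell most in both genotypes (Acadm), the gene that rose (Cpt1c), the main kidney CPT1 (Cpt1a) and 2 further oxidation enzymes. Each runs 5′ to 3′ on the strand of its gene, with the half-site, or TGACCT where it lies on the other strand, in capitals.
Acadm, chr3:153944869-153944893, minus strand: gTGACCTtcgggctccggtgacact
Cpt1a, chr19:3323189-3323230, plus strand: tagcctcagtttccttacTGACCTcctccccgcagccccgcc
Cpt1c, chr7:44974974-44975015, minus strand: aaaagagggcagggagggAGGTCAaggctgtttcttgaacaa
Acadvl, chr11:70015492-70015533, minus strand: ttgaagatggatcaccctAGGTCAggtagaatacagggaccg
Echs1, chr7:140116481-140116522, minus strand: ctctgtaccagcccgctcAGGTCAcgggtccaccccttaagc
A match is a run of letters and not a shown binding site, and the gene that rose has the half-site as do genes that fell. The capitals lie 249 to 244 bases before the RefSeq start in Acadm, 94 to 89 in Cpt1a, 146 to 141 in Cpt1c, 87 to 82 in Acadvl and 83 to 78 in Echs1. Starts differ between annotations: in GENCODE, Cpt1a starts at chr19:3322334, so its window lies inside the gene there.

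After obstruction, nearly the whole set fell in both genotypes and 1 gene rose. In SMOC2 UUO against SMOC2 normal kidney, 32 of the 34 genes were lower, Cpt1c was higher and Acsm3 did not pass the test (edgeR quasi-likelihood test, adjusted p under 0.05). In WT UUO against WT normal kidney, 33 were lower and Cpt1c was higher. Of all genes tested, 30.4% were lower and 32.5% higher in the SMOC2 comparison (62.8% in either direction), and 29.8% were lower and 31.3% higher in the WT comparison (61.1% in either direction). The median log2 fold change of the set was −1.52 in SMOC2 kidneys, against 0.0365 over all genes, and −1.56 in WT kidneys, against 0.0455 over all genes. A fall of more than 2-fold was seen in 30 of the 34 genes in each genotype, against 14.3% of all genes in SMOC2 and 13.3% in WT kidneys. The SMOC2 and WT comparisons share no libraries, but both tests take their estimate of the spread from the same fit to all 14 libraries. The 2 tests are therefore not fully independent.

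**Figure D1:**
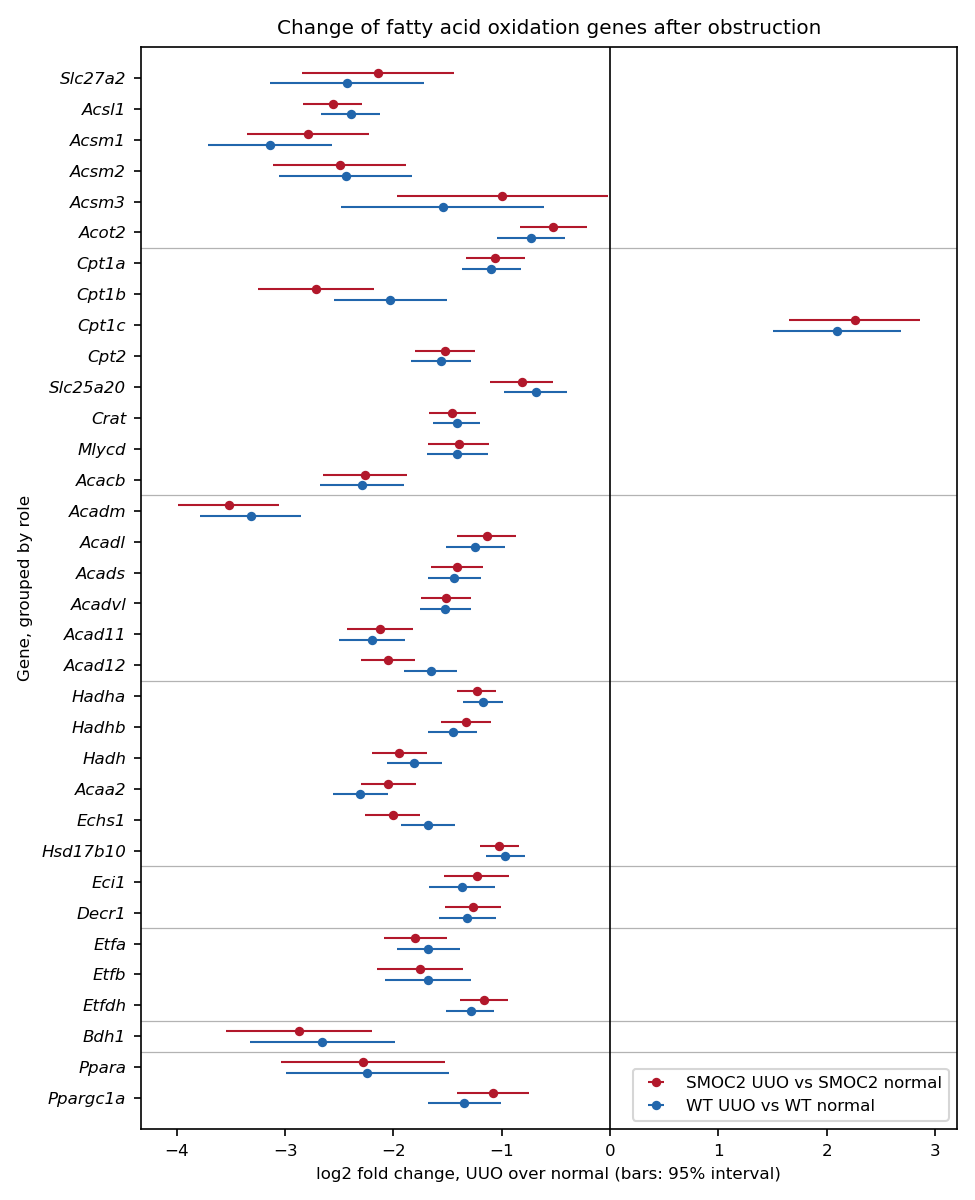
Log2 fold change of each of the 34 genes, UUO over normal, in SMOC2 (red) and WT (blue) kidneys, with 95% intervals from edgeR; thin lines separate roles. All points but those of Cpt1c lie left of 0, and Acadm lies farthest left at −3.52 in SMOC2 and −3.32 in WT kidneys.

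The libraries of the 2 states did not overlap for the genes called: every SMOC2 UUO library was below every SMOC2 normal library for 32 genes, as for 30.1% of all genes, and every WT UUO library was below every WT normal library for 33, as for 29.5% of all genes. Summed over the 34 genes, levels were 3271, 3461, 3745 and 4141 CPM in SMOC2 UUO libraries and 14404.6 to 16386.8 CPM in SMOC2 normal libraries. They were 2695, 4036, 2787 and 4271 CPM in WT UUO libraries and 13480.7 to 16053.2 CPM in WT normal libraries. Because these are bulk samples, fewer tubule cells and less RNA per tubule cell cannot be told apart. The 15 proximal tubule markers, all of which fell in both genotypes, summed to 4206 to 5102 CPM in SMOC2 UUO against 40841 to 49970 CPM in SMOC2 normal libraries, and to 2890 to 6921 CPM in WT UUO against 38167 to 50891 CPM in WT normal libraries. Of 9 loop and distal tubule markers and 6 collecting duct markers, all fell in both genotypes as well. Of 10 macrophage markers 9 rose in SMOC2 and 10 in WT kidneys, and of 7 T cell markers 5 rose in SMOC2 and 6 in WT kidneys. Of 8 endothelial markers 3 fell and 1 rose in SMOC2 kidneys, and 4 fell and 0 rose in WT kidneys. The macrophage markers summed to 1561 to 2418 CPM in SMOC2 UUO against 231 to 276 CPM in SMOC2 normal libraries, and to 1978 to 2202 CPM in WT UUO against 221 to 254 CPM in WT normal libraries. The part of these shifts in cell markers in the falls described here was not tested. Markers of skeletal muscle and adipose tissue, which burn or store fat, summed to at most 3.94 and 3.82 CPM in any library.

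**Figure D2:**
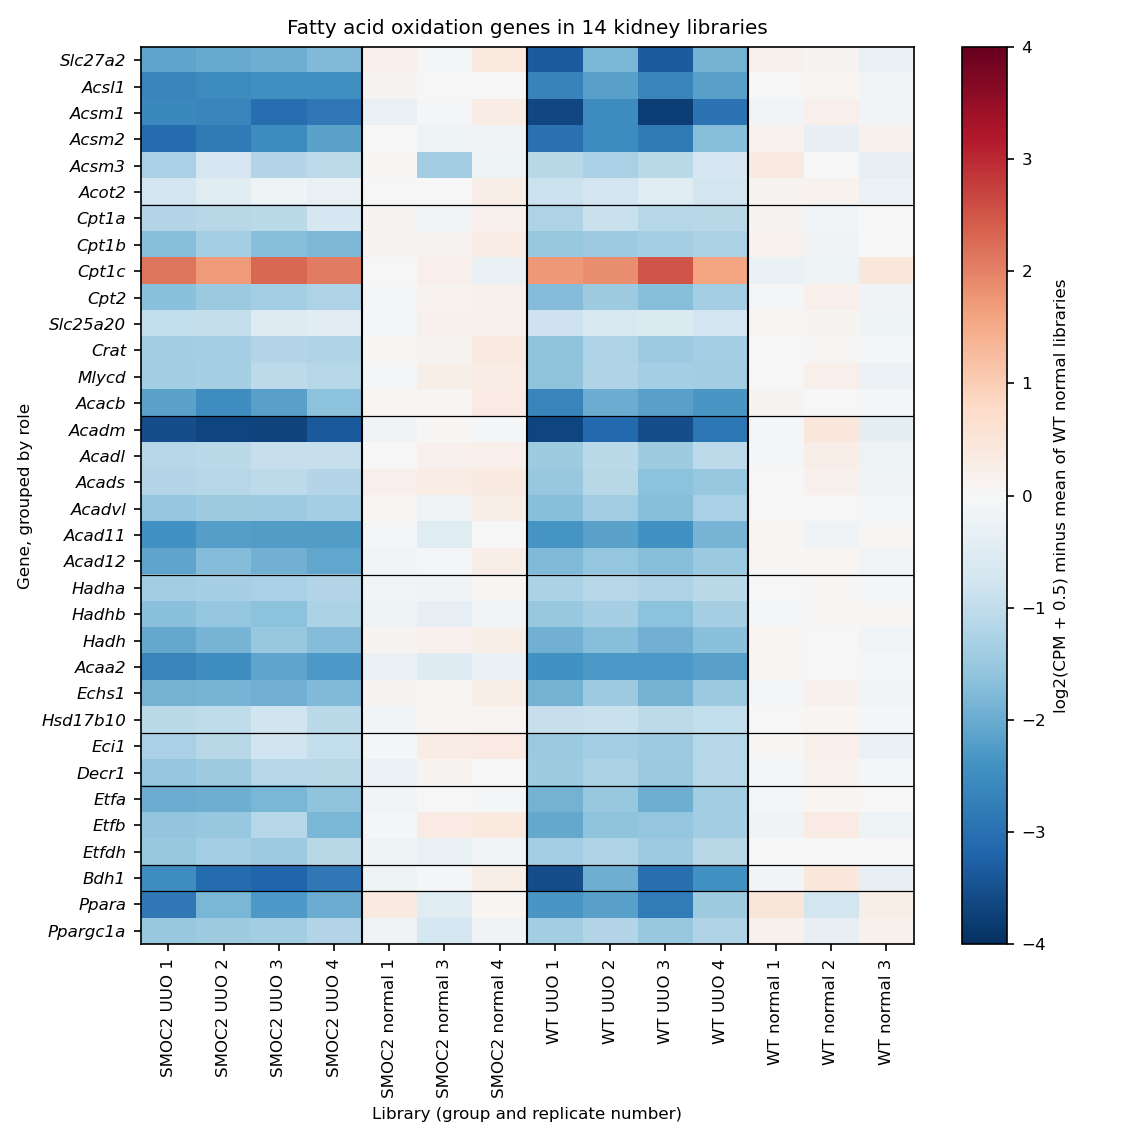
Each cell is log2(CPM + 0.5) of a gene in a library minus the mean of the 3 WT normal libraries; rows are the 34 genes grouped by role and columns the 14 libraries in 4 groups. The 8 UUO columns are blue for all rows but that of Cpt1c, which is red.

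Genes of entry and activation showed some of the deepest falls. Slc27a2 (chr2:126552407-126588243, plus strand, GRCm38) encodes FATP2, a fatty acid transporter and very long-chain acyl-CoA synthetase, and had the highest level per kilobase of exon in the set in all 4 groups. It had 862, 929, 970 and 1106.3 CPM in SMOC2 UUO libraries and 4289, 3586.5 and 4932 CPM in SMOC2 normal libraries. In WT kidneys it had 373, 1049.7, 376 and 1008.5 CPM with UUO and 4231.5, 4042 and 3077 CPM without. The groups did not overlap, and the log2 fold changes were −2.14 ± 0.33 (SE, adjusted p = 5.69e-05) in SMOC2 and −2.43 ± 0.33 (adjusted p = 2.06e-05) in WT kidneys. Per kilobase of merged exon and scaled to the same total, its level was 938 ± 88.5 in SMOC2 UUO and 2440.2 ± 423 in SMOC2 normal kidneys, and 661 ± 356 in WT UUO and 2334 ± 394 in WT normal kidneys. That scale takes no TMM factors, and the fall on it is smaller than the log2 fold changes above, so it serves only to order genes within a group. On that scale Acadm came next in normal kidneys (1232 ± 71.7 in SMOC2 and 1398 ± 309 in WT), and Acadl came next in UUO kidneys (312 ± 18.4 in SMOC2 and 262 ± 40.7 in WT, the WT value within the spread of Acadm at 217 ± 56.2). With the length of the longest transcript, Acadm was ahead of Acadl in UUO kidneys (273.6 against 256.0 in SMOC2, within the spread, and 327.6 against 216.8 in WT). Slc27a2 overlaps a non-coding gene on the opposite strand, Gm26697, and whether counting used the strand is not known.

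Acsl1, the long-chain acyl-CoA synthetase tied to oxidation, averaged 119.6 ± 7.2 CPM in SMOC2 UUO and 705 ± 30.9 CPM in SMOC2 normal kidneys, and 130.4 ± 24.7 CPM in WT UUO and 686 ± 42.0 CPM in WT normal kidneys (SD, n = 4 with UUO and 3 without). Its log2 fold change was −2.56 in SMOC2 and −2.40 in WT kidneys, and the SMOC2 value had the smallest adjusted p of the set in that comparison (7.21e-09). Acsm1 and Acsm2, medium-chain acyl-CoA synthetases, fell by 2.79 and 2.50 on the log2 scale in SMOC2 kidneys and by 3.14 and 2.44 in WT kidneys. Acsm1 had 74.9, 70.8, 53.8 and 61 CPM in SMOC2 UUO against 370.5, 427 and 555 CPM in SMOC2 normal libraries, and 35.3, 78.5, 32.5 and 57.9 CPM in WT UUO against 414, 517 and 417 CPM in WT normal libraries. Acsm2 had 236, 281.5, 352 and 455 CPM in SMOC2 UUO against 1791.6 to 1997.1 CPM in SMOC2 normal libraries, and 255, 341, 284.5 and 616 CPM in WT UUO against 1597.5 to 2284.6 CPM in WT normal libraries. Both genes varied more among UUO libraries than Acsl1 did, and no UUO library reached the normal range.

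The exceptions in this group were Acsm3 and Acot2. Acsm3, another medium-chain synthetase that shares exon bases with Eri2 on the opposite strand, was near the limit of detection, with 14, 24, 15 and 15 counts in SMOC2 UUO libraries and 30, 7 and 29 counts in SMOC2 normal libraries. Its log2 fold change there was −0.99 (adjusted p = 0.0701), and the test was passed without SMOC2 normal library 3 (−1.42, adjusted p = 0.00565) or without SMOC2 UUO library 2 (−1.25, adjusted p = 0.0391). In WT kidneys Acsm3 fell by 1.55 (adjusted p = 0.00689). Acot2, a mitochondrial thioesterase that releases free fatty acids from acyl-CoA, fell by 0.52 (adjusted p = 0.00592) in SMOC2 and by 0.73 (adjusted p = 0.000558) in WT kidneys, the smallest called falls beside Slc25a20. It had 15.5, 18.9, 23.7 and 21.4 CPM in SMOC2 UUO against 26.8, 27 and 31.8 CPM in SMOC2 normal libraries, and 14.6, 15.3, 18.9 and 15.9 CPM in WT UUO against 28.7, 29.2 and 22.5 CPM in WT normal libraries, close groups that did not overlap.

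In the carnitine shuttle the 3 CPT1 genes went different ways. Cpt1a, the form that carries most of the CPT1 signal in kidney, had 188, 197, 205 and 268.5 CPM in SMOC2 UUO libraries against 463, 399 and 479 CPM in SMOC2 normal libraries, and 181.0, 229, 195 and 199 CPM in WT UUO libraries against 466.5, 398 and 425 CPM in WT normal libraries. All UUO libraries lay below all normal libraries, with log2 fold changes of −1.06 ± 0.13 (adjusted p = 5.5e-06) and −1.10 ± 0.13 (adjusted p = 4.34e-06).

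Cpt1c, a form best known from neurons and the endoplasmic reticulum with little palmitoyl transfer activity, had 13.6, 9.9, 15.3 and 13.2 CPM in SMOC2 UUO libraries against 2.8, 3.2 and 2.2 CPM in SMOC2 normal libraries. In WT kidneys it had 10.2, 11.3, 17.8 and 9.2 CPM with UUO and 2.2, 2.3 and 3.9 CPM without. It was higher in each UUO library than in any normal library, by 2.26 ± 0.28 on the log2 scale in SMOC2 (adjusted p = 8.24e-06) and by 2.10 ± 0.28 in WT kidneys (adjusted p = 1.48e-05). Cpt1c shares exon bases with an antisense gene on the opposite strand, 6530437J22Rik, and whether counting used the strand is not known. The 9 fibroblast and myofibroblast markers all rose in both genotypes. Their sums were 3734 to 5094 CPM in SMOC2 UUO against 193.5 to 391 CPM in SMOC2 normal libraries. In WT kidneys the sums were 2836.5 to 5026.5 CPM with UUO against 256 to 582 CPM without. The part of fibroblasts, or of other cells whose markers rose, in the rise of Cpt1c was not tested.

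Cpt1b, the muscle form, was barely detected, with 7 to 15 counts in SMOC2 UUO against 39 to 55 counts in SMOC2 normal libraries and 13 to 17 counts in WT UUO against 36 to 58 counts in WT normal libraries. It fell by 2.72 and by 2.03 on the log2 scale in SMOC2 and WT kidneys (adjusted p = 5.01e-07 and 6.08e-06), and it shares exon sequence with the read-through gene Gm44502. Expressed as shares of the CPT1 signal per kilobase of exon, Cpt1c made up 7.70% ± 1.58 in SMOC2 UUO and 0.826% ± 0.233 in SMOC2 normal kidneys, and 7.57% ± 2.34 in WT UUO and 0.878% ± 0.314 in WT normal kidneys. Cpt1a remained by far the main form, at 91.9% in both UUO groups, 97.9% in SMOC2 normal and 98.0% in WT normal kidneys.

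Of the other shuttle genes, Cpt2, which rebuilds acyl-CoA inside the mitochondrion, fell by 1.52 in SMOC2 and by 1.57 in WT kidneys, and Crat, which buffers acetyl-CoA as acetylcarnitine, fell by 1.46 and by 1.42. Crat had 115.2 to 134 CPM in SMOC2 UUO against 313 to 386 CPM in SMOC2 normal libraries, and 99.1 to 127.7 CPM in WT UUO against 291 to 316 CPM in WT normal libraries. The translocase gene Slc25a20 fell less, by 0.82 (adjusted p = 0.000125) and by 0.69 (adjusted p = 0.000566). Scaled by library totals alone, a setting added after the data were seen that moves the median of all genes to 0.536 in SMOC2 and 0.515 in WT kidneys and the share of lower genes among those called to 21.3% in each (48.4% in SMOC2 and 48.8% in WT with scaling factors), Slc25a20 was no longer called in WT kidneys (−0.21, adjusted p = 0.162). Acot2 was then called in neither genotype (−0.02, adjusted p = 0.891, in SMOC2 and −0.26, adjusted p = 0.12, in WT). Both enzymes of malonyl-CoA turnover fell: Acacb, the acetyl-CoA carboxylase that makes it at the mitochondrion, by 2.26 and by 2.29, and Mlycd, the decarboxylase that removes it, by 1.4 and by 1.41. Acacb had 18.3, 14.5, 17.9 and 26.3 CPM in SMOC2 UUO against 87.3, 85.2 and 104.3 CPM in SMOC2 normal libraries, and 12.8, 20.8, 18.2 and 16.3 CPM in WT UUO against 89, 81.9 and 79 CPM in WT normal libraries.

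**Figure D3:**
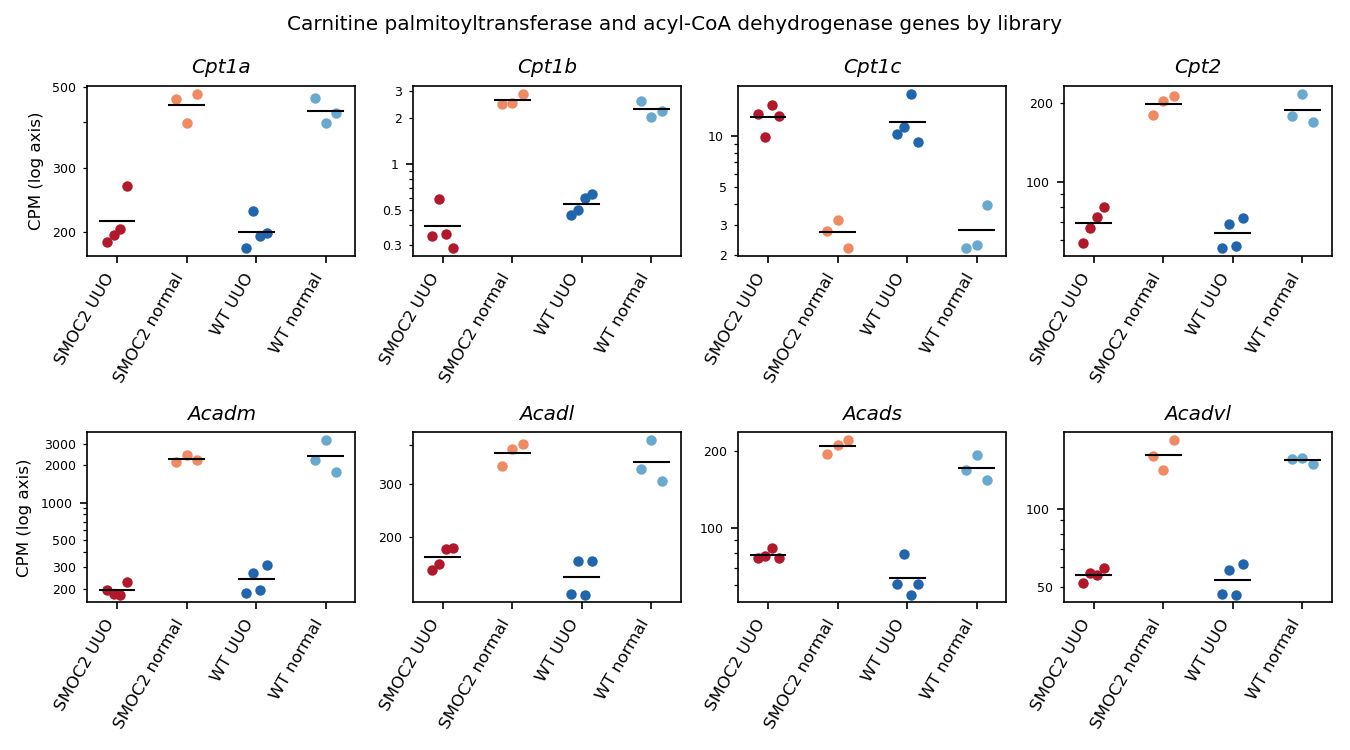
CPM of 8 genes in each library (points) and the group mean (black line), on log axes that differ between panels; groups run SMOC2 UUO, SMOC2 normal, WT UUO and WT normal. Cpt1c is the panel in which UUO lies above normal, and Acadm shows the widest gap, about 196 against 2251 CPM in SMOC2 kidneys.

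The acyl-CoA dehydrogenases, which carry out the first oxidation at different chain lengths, all fell, and Acadm led them. Acadm, the medium-chain enzyme (chr3:153922357-153944632, minus strand, GRCm38), had 197, 180.2, 179 and 228 CPM in SMOC2 UUO libraries against 2118, 2415 and 2221 CPM in SMOC2 normal libraries. In WT kidneys it had 183, 269, 196 and 310.3 CPM with UUO and 2224, 3202 and 1762 CPM without. The distance between the groups was several times the spread within them, an 11.5-fold fall in SMOC2 (log2 −3.52 ± 0.22, adjusted p = 2.21e-08) and a 9.99-fold fall in WT kidneys (log2 −3.32 ± 0.22, adjusted p = 3.65e-08).

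The long-chain enzyme Acadl fell by 1.14 and by 1.24, to 157 to 184 CPM in SMOC2 UUO libraries against 342 to 403 CPM in SMOC2 normal libraries and to 129.8 to 167 CPM in WT UUO libraries against 305 to 416 CPM in WT normal libraries. The short-chain enzyme Acads fell by 1.41 and by 1.44, and the very long-chain enzyme Acadvl fell by 1.52 in each genotype. The falls of Acadl and Acads were smaller than the set's median in both genotypes, and Acadvl lay close to it. Acadvl shares exon bases with Dvl2 on the opposite strand, and Acad11 does so with Gm28305 on the same strand and Ackr4 on the opposite strand. Acad11, which handles long acyl chains including hydroxylated ones, fell by 2.12 and by 2.20, and the less studied Acad12 fell by 2.05 in SMOC2 kidneys and fell by 1.66 in WT kidneys. Acad12 had 11.5 to 14.9 CPM in SMOC2 UUO against 47.7 to 61.3 CPM in SMOC2 normal libraries, and 14.8 to 17.9 CPM in WT UUO against 47.2 to 54.4 CPM in WT normal libraries, a narrow spread in each group. With these unequal falls the make-up of the family moved: Acadm held 25.2% ± 2.2 of the summed level per kilobase of the 6 genes in SMOC2 UUO and 60.8% ± 2.1 in SMOC2 normal kidneys, and 31.8% ± 3.0 in WT UUO and 63.5% ± 4.4 in WT normal kidneys. Acadl was the largest in UUO, with 43.2% in SMOC2 and 38.9% in WT kidneys. That order depends on the length used: with the longest transcript of each gene, Acadm stayed ahead of Acadl in UUO kidneys, with 35.7% and 33.5% in SMOC2 and 43.0% and 28.9% in WT.

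Hadha and Hadhb encode the α and β subunits of the trifunctional protein, which runs the last 3 steps for long chains. They lie head to head on chromosome 5 (Hadha at chr5:30118304-30155162 on the minus strand, Hadhb at chr5:30155248-30184593 on the plus strand, GRCm38), and the 85 bases between their annotated starts, 69.4% of them G or C and outside annotated exons, are shown because they are the stretch the genes share.
Hadha and Hadhb, chr5:30155163-30155247, plus strand: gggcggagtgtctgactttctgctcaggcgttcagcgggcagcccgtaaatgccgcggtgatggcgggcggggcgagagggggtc
Hadha fell by 1.23 ± 0.08 and Hadhb by 1.33 ± 0.11 on the log2 scale in SMOC2 kidneys, and they fell by 1.17 ± 0.08 and 1.45 ± 0.11 in WT kidneys. Hadha had 172 to 200.1 CPM in SMOC2 UUO against 404 to 474 CPM in SMOC2 normal libraries, and 188 to 214 CPM in WT UUO against 434 to 461 CPM in WT normal libraries.

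For shorter chains, Echs1, the short-chain enoyl-CoA hydratase, fell by 2.01 in SMOC2 and by 1.68 in WT kidneys, and Hadh, the medium and short-chain hydroxyacyl-CoA dehydrogenase, by 1.95 and by 1.81. Hadh had 139.9, 159.6, 205 and 177 CPM in SMOC2 UUO against 635 to 681 CPM in SMOC2 normal libraries, and 155, 178, 153 and 182 CPM in WT UUO against 545 to 612 CPM in WT normal libraries. Its groups were thus far apart relative to the spread within them, and the same was seen one step on. The thiolase gene Acaa2 had 47.1, 52.9, 69.1 and 59.8 CPM in SMOC2 UUO against 248, 210.5 and 251 CPM in SMOC2 normal libraries, and 54.9, 60.3, 60.1 and 66.5 CPM in WT UUO against 309, 301 and 286 CPM in WT normal libraries, a fall of 2.05 and of 2.31 on the log2 scale. Hsd17b10, which also serves isoleucine breakdown and the processing of mitochondrial tRNA, was among the least changed, with falls of 1.02 and of 0.97. The auxiliary enzymes for unsaturated chains fell together: Eci1, an isomerase, by 1.23 and by 1.37, and Decr1, a reductase, by 1.27 and by 1.32.

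The electron transfer flavoprotein genes Etfa and Etfb fell by 1.8 and by 1.75 in SMOC2 kidneys and by 1.68 each in WT kidneys. Etfdh, whose product hands the electrons to ubiquinone, fell by 1.17 in SMOC2 and by 1.29 in WT kidneys. Etfa had 73.6 to 96.7 CPM in SMOC2 UUO against 276 to 297 CPM in SMOC2 normal libraries, and 75.6 to 112.5 CPM in WT UUO against 282 to 313 CPM in WT normal libraries. Etfb, the other subunit, had 18.8 to 30.5 CPM in SMOC2 UUO against 66.4 to 88.9 CPM in SMOC2 normal libraries. Etfb shares exon bases with Gm45233, a protein-coding gene on the same strand, so its level is uncertain whether or not counting used the strand. In WT kidneys Etfb had 16.2 to 25.5 CPM with UUO and 59.2 to 85.8 CPM without, so that the 3 genes of this step were each lower in every UUO library.

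Bdh1 encodes the mitochondrial enzyme that interconverts acetoacetate and β-hydroxybutyrate. It had 77.1, 51.2, 47.9 and 60.2 CPM in SMOC2 UUO against 381, 409.5 and 509 CPM in SMOC2 normal libraries, and 37.1, 111.8, 53.2 and 81.9 CPM in WT UUO against 406, 588 and 349 CPM in WT normal libraries. No UUO library reached a normal one, and the log2 falls were 2.87 and 2.66 (adjusted p = 2.28e-06 and 4.95e-06).

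Among 9 further ketone body genes, 5 fell and 1 rose in SMOC2 kidneys, and 6 fell and 0 rose in WT kidneys. Oxct1, which activates acetoacetate for use as fuel, fell by 2.45 and by 2.36, and Acat1, its partner thiolase, fell by 2.17 and by 2.22. The monocarboxylate transporter gene Slc16a1 rose by 0.62 in SMOC2 kidneys (adjusted p = 0.0038); in WT kidneys it differed by −0.30 (adjusted p = 0.114), which becomes a called fall without WT normal library 1 (−0.49, adjusted p = 0.00423).

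The regulators Ppara and Ppargc1a fell as well. Ppara had 6.7, 14.2, 10.2 and 12.7 CPM in SMOC2 UUO against 67.1, 37.0 and 54.8 CPM in SMOC2 normal libraries, and 9.8, 11, 7.0 and 18.9 CPM in WT UUO against 72.5, 31.0 and 61.2 CPM in WT normal libraries. The groups did not overlap although the normal libraries spread more than 2-fold in WT, and the log2 falls were 2.28 ± 0.35 (adjusted p = 6.38e-05) and 2.24 ± 0.35 (adjusted p = 7.76e-05). Ppargc1a, which encodes PGC-1α, fell by 1.08 in SMOC2 and by 1.35 in WT kidneys. It had 50.5, 53.5, 54.4 and 64.2 CPM in SMOC2 UUO against 132.2, 88.3 and 132.4 CPM in SMOC2 normal libraries, and 54.4, 63.8, 50.1 and 62.5 CPM in WT UUO against 161.6, 115.3 and 162.3 CPM in WT normal libraries.

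Known PPARA targets outside the set mostly fell, with median log2 fold changes of −1.43 in SMOC2 and −1.71 in WT kidneys, but some rose. Of 16 tested, 10 fell and 3 rose in SMOC2 kidneys, and 10 fell and 2 rose in WT kidneys. The peroxisomal enzyme Ehhadh fell by 2.86 in SMOC2 kidneys and fell by 3.59 in WT kidneys, and the thioesterases Acot1, Acot3 and Acot4 had log2 fold changes between −3.67 and −1.66 over both genotypes. Angptl4, a secreted inhibitor of lipoprotein lipase, rose in contrast, to 185.3 to 251 CPM in SMOC2 UUO against 25.2 to 67.3 CPM in SMOC2 normal libraries, and to 113.4 to 201 CPM in WT UUO against 29.5 to 37.0 CPM in WT normal libraries. Its log2 rises were 2.27 and 2.20 (adjusted p = 7.09e-06 and 1.05e-05). The lipid droplet gene Plin2 rose by 1.32 and by 1.22. Creb3l3, a membrane-bound transcription factor with at most 1.1 CPM in any SMOC2 UUO library, rose by 2.01 in SMOC2 kidneys (adjusted p = 0.00543) and differed by 1.28 in WT kidneys (adjusted p = 0.0569); the WT value passed the test when any 1 of SMOC2 normal library 4, WT normal library 3 or WT UUO library 4 was left out, with upper-quartile factors (adjusted p = 0.0413) and with library totals alone (adjusted p = 0.0116). Pdk4, which spares glucose, differed by 0.36 and 0.20 (adjusted p = 0.337 and 0.611).

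Other lists of the pathway showed the same direction in part. Of 26 other mitochondrial acyl-CoA enzymes tested, 23 fell and Acot9, a thioesterase, rose in each genotype; Acsm5, Acss1 and Acad9 fell by 2.92, 2.57 and 1.52 in SMOC2 kidneys and by 2.72, 2.53 and 1.48 in WT kidneys. Of 6 carnitine supply genes, 5 fell in each genotype, among them the carnitine transporter Slc22a5 (log2 −1.86 in SMOC2 and −1.91 in WT) and the synthesis enzyme Aldh9a1 (log2 −2.16 in SMOC2 and −2.27 in WT). Crot, a peroxisomal carnitine transferase, fell by 0.94 in WT kidneys but lost its call without WT normal library 2 (−0.43, adjusted p = 0.176). With library totals alone Crot was called in neither genotype (−0.59, adjusted p = 0.078, in SMOC2 and −0.46, adjusted p = 0.162, in WT). Bbox1, the last step of carnitine synthesis, had a log2 fold change of −2.43 in WT kidneys, and of −1.79 without WT normal library 1, where it was still called (adjusted p = 0.0128). Bbox1 was near the limit of detection, with 7, 9, 22 and 9 counts in WT UUO and 91, 22 and 45 counts in WT normal libraries. Slc22a21 rose by 0.77 in SMOC2 kidneys and differed by 0.41 (adjusted p = 0.069) in WT kidneys, where it passed the test without WT UUO library 4 (0.48, adjusted p = 0.0464).

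Of 14 genes of fatty acid uptake, binding and other synthetases tested, 7 fell and 3 rose in SMOC2 kidneys, and 8 fell and 1 rose in WT kidneys. Lpl, which frees fatty acids from lipoproteins, fell by 2.72 and by 2.29, and Cd36, a fatty acid transporter, by 1.78 and by 1.62. Slc27a3, another member of the Slc27a family, rose by 1.04 and by 1.35. Acsl4 (0.78) and Fabp4 (0.37) rose in SMOC2 kidneys, where the call of Fabp4 was lost without SMOC2 normal library 1 (0.31, adjusted p = 0.108), SMOC2 normal library 4 (0.32, adjusted p = 0.105), SMOC2 UUO library 2 (0.35, adjusted p = 0.0621) or SMOC2 UUO library 3 (0.33, adjusted p = 0.0655).

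Of 28 further regulators, 21 fell and 3 rose in SMOC2 kidneys, and 20 fell and 4 rose in WT kidneys. Esrra, an estrogen-related receptor that works with PGC-1α, fell by 1.57 and by 1.36, and Sirt3, a mitochondrial deacylase, fell by 1.88 and by 1.79. Klf15, a transcription factor of fasting metabolism, fell by 3.54 and by 2.79. Pparg rose in WT kidneys (1.51, adjusted p = 0.00214) and differed by 0.81 in SMOC2 kidneys (adjusted p = 0.0586), where it passed the test without SMOC2 UUO library 3, WT UUO library 1 or WT UUO library 3, with DESeq2 (adjusted p = 0.0428), with only the libraries compared (0.0252), with upper-quartile factors (0.0335) and with library totals alone (0.00495). Prkaa1, Nrip1 and Nrf1 rose by 0.44, 0.60 and 0.23 in SMOC2 kidneys and by 0.32, 0.34 and 0.22 in WT kidneys. Without WT normal library 2 none of these 3 was called in WT kidneys (adjusted p = 0.0614 for Prkaa1, 0.219 for Nrip1 and 0.101 for Nrf1), and the WT call of Nrip1 was lost for each of 8 libraries left out, that of Nrf1 for each of 4. In SMOC2 kidneys the call of Nrf1 was lost without SMOC2 normal library 3 or 4 or SMOC2 UUO library 1 or 3. Most fatty acid synthesis genes fell too: of 12, 9 fell and 2 rose in SMOC2 kidneys, and 8 fell and 1 rose in WT kidneys. Scd1, a desaturase, fell by 2.42 and by 2.80 and Fasn, the fatty acid synthase, fell by 0.70 and by 1.01, the SMOC2 call being lost with library totals alone (−0.20, adjusted p = 0.162). Mid1ip1, an activator of acetyl-CoA carboxylase, rose by 0.62 and by 0.54, and the other riser, Scd2 (0.41 in SMOC2 kidneys, adjusted p = 0.0281), was not called when any 1 of SMOC2 normal libraries 3 and 4 and SMOC2 UUO libraries 1 and 2 was left out.

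**Figure D4:**
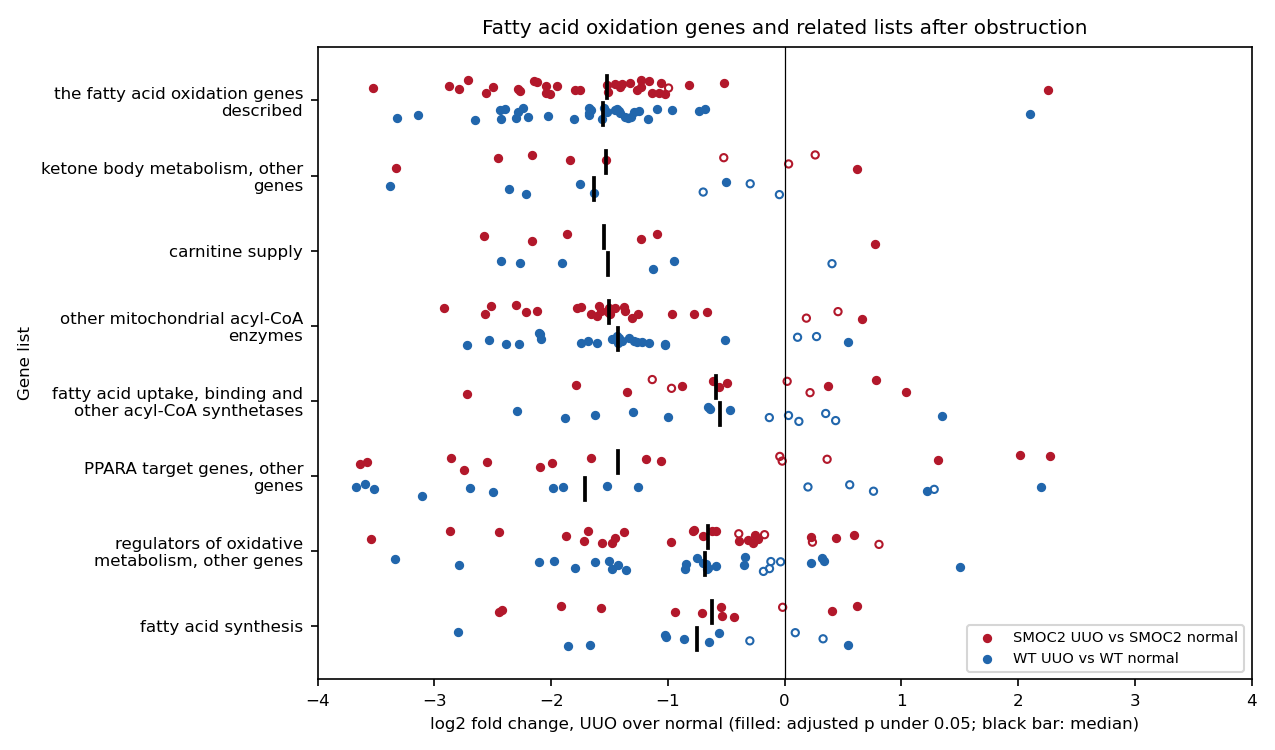
Log2 fold change, UUO over normal, of each gene tested in the 34-gene set (top) and 7 related lists, in SMOC2 (red) and WT (blue) kidneys; filled points passed the test and black bars are medians. The set, ketone body, carnitine and other acyl-CoA lists have medians between −1.64 and −1.42. The PPARA target list has medians of −1.43 in SMOC2 and −1.71 in WT kidneys, and the uptake list of −0.59 in SMOC2 and −0.56 in WT kidneys.

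No gene of the set was called between the genotype labels. In SMOC2 UUO against WT UUO kidneys 0 of 34 genes were called, as against 0.831% of all genes (0.273% lower and 0.558% higher), and in SMOC2 normal against WT normal kidneys 0 of 34, as against 0.0279% of all genes (0.00558% lower and 0.0223% higher). The difference between the 2 obstruction effects was called for 0 of 34 and for 0% of all genes, and so also for no gene called by edgeR in 1 genotype alone, such as Slc16a1. DESeq2 and limma-voom also called 0 of the 34 in these comparisons. At an unadjusted p under 0.05 there were 4, 2 and 1 genes of the set: Acad12, Acads, Acot2 and Eci1 in UUO, Acaa2 and Acads in normal kidney, and Acad12 for the difference of effects. Over all 17926 genes tested, 2716, 2299 and 1154 had an unadjusted p under 0.05 in these comparisons, a larger share than in the set each time. The names were taken after seeing their values. Among the related lists, Mlxipl, which encodes the sugar-sensing factor ChREBP, was higher in SMOC2 UUO than in WT UUO kidneys (0.51, adjusted p = 0.0466), a call lost when any 1 library was left out (adjusted p = 0.053 to 0.109). Within the set the smallest adjusted p was 0.143, for Acad12 in UUO kidneys (log2 −0.34, 95% interval −0.58 to −0.11).

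The intervals bound how far the responses may differ. For Acadm the obstruction effect in SMOC2 minus that in WT kidneys was −0.20 on the log2 scale, with a 95% interval of −0.83 to 0.43, for Cpt1c it was 0.16 (−0.65 to 0.97), and for Slc27a2 0.29 (−0.70 to 1.28). Over the 34 genes this difference ran from −0.69 for Cpt1b to 0.55 for Acsm3, the genes with the fewest counts.

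WT UUO libraries differed among themselves more than SMOC2 UUO libraries in the summed level of the set (SD 822 against 378 CPM). Libraries 2 and 4 were both above libraries 1 and 3 for 24 of the 34 genes, with Slc27a2 at 1049.7 and 1008.5 CPM in the first pair and at 373 and 376 CPM in the second. The proximal tubule sum ran alongside, at 6921 and 6148 CPM in libraries 2 and 4 and at 2890 and 3151 CPM in libraries 1 and 3. So did the loop and distal tubule sum (3907.5 and 3471 against 1855 and 2248 CPM). The fibroblast sum ran opposite, at 3149 and 2836.5 CPM in libraries 2 and 4 and 5026.5 and 4473 CPM in libraries 1 and 3. The macrophage sum did not separate the pairs (1993 and 2202 against 2078 and 1978 CPM). Among SMOC2 UUO libraries, library 1 was lowest for 24 of the 34 genes and library 4 highest for 16. There the proximal tubule sum was 4206, 4539, 5093.5 and 5102 CPM in libraries 1 to 4, and the loop and distal tubule sum 2679, 1759, 1781 and 1933 CPM. The part of cell types in these differences was not tested. The pairs of WT libraries were picked after seeing the values. The same counts were not made over all genes, so these counts are not shown to be particular to the set. Every WT UUO library was nonetheless below every WT normal library for all genes but Cpt1c.

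**Figure D5:**
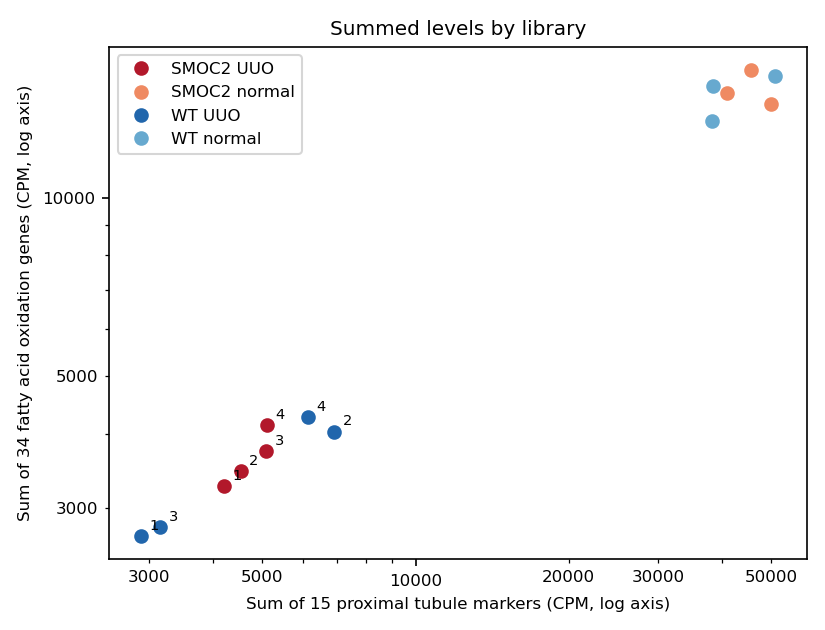
Summed CPM of the 34 genes against summed CPM of 15 proximal tubule markers in each library, both on log axes; numbers mark UUO libraries. UUO libraries lie at 2695 to 4271 CPM for the set and normal libraries at 13480.7 to 16386.8 CPM, and WT UUO libraries 1 and 3 lie lowest on both axes.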

How the data were processed

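Per the labels' protocols, libraries were built from frozen kidney with a strand-specific mRNA kit. What the authors deposited is 1 column of raw counts for each library, without normalization. STAR 2.4.1d, Subread's featureCounts 1.4.4 and the build mm10 stand in the submitters' processing notes. Whether counting used the strand, and from which annotation, is not given in the sources used here, so genes that overlap others are uncertain. Beside the members named above for this, Acsl1, Crat, Hadha, Echs1, Etfdh and Bdh1 share exon bases with genes on the opposite strand. Of 47729 listed genes, 47310 matched GENCODE (build GRCm38), which gave symbols and positions.

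Libraries were grouped by label. In R 4.3.3, edgeR 4.0.16 (filterByExpr, trimmed mean of M-values factors, glmQLFit and glmQLFTest on group means of all 14 libraries) tested 5 comparisons, with Benjamini-Hochberg adjustment over all 17926 genes and a threshold of 0.05. Changes are log2 fold changes; ± gives the SE of a fold change or the SD of a level. Levels per kilobase used merged exons and are a description. The pipeline was also run on simulated counts in which few genes changed, some up and some down. That run cannot test the scaling of these data, in which most genes were called after obstruction.

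The members and lists were chosen with earlier results of these data known. Named genes were all members, up to 6 genes of each list with the smallest p, genes needed to name a small count or one that did not pass, and Smoc2; Plin2, Creb3l3, Pdk4, Acsm5, Pparg, Prkaa1, Nrip1, Nrf1, Acot9, Acsl4, Fabp4, Scd2, Mid1ip1 and Slc16a1 are outside the 6 and were named after seeing their values. The lists hold ketone body, carnitine, acyl-CoA, uptake, PPARA target, regulator and fatty acid synthesis genes and cell type markers. Alternatives were median-ratio, upper-quartile and no scaling factors, limma-voom (limma 3.58.1), DESeq2 1.42.0, no filter or one of 50 counts in 3 libraries, a block for the replicate number, a fit to only those libraries being compared, leaving out each library, and transcript lengths. Some genes of the lists are counted but not reported here by name.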

Additional observations from a re-analysis of the deposited data

Results flagged for a closer look

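Of 172 groups of 4 UUO libraries examined by gene, 6 held 1 library whose gap to the others was over Dixon's critical value, where chance flags about 1 in 20. Among the members, Acad11 was low in SMOC2 UUO library 1 (44.1 CPM, the others 51.1 to 52.1 CPM), and Hsd17b10 was high in SMOC2 UUO library 3 (80.6 CPM, the others 67.5 to 69.4 CPM). In related genes, SMOC2 UUO library 1 was low for Acat1 (111.9 CPM, the others 121.8 to 123.2 CPM). Slc27a4 was high in WT UUO library 2 (71.1 CPM, the others 59.4 to 59.8 CPM), Acsl4 was high in WT UUO library 4 (120.9 CPM, the others 84.4 to 88.4 CPM), and Fabp4 was low in WT UUO library 3 (64.2 CPM, the others 77.7 to 79.7 CPM).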

How the results depend on the processing

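The number of members called lower, and the call of Cpt1c as higher, stayed within 1.5 times under every alternative run: 31 to 33 members were lower in each genotype. The filter of 50 counts left out Acsm3 among the members, and also Bbox1. Without scaling factors, a setting chosen after seeing the data, the median of the members was −1.02 in SMOC2 and −1.09 in WT kidneys, Slc16a1 turned to 0.18 in WT kidneys, and Slc27a4, called lower with scaling factors, turned to 0.00451 in SMOC2 and 0.00257 in WT kidneys. Upper-quartile factors moved the median of all genes to 0.158 in WT kidneys. Genes called between SMOC2 UUO and WT UUO (149) became 757 with DESeq2, 232 with limma-voom, 69 with the replicate block, 39 with only the libraries compared, and 29 to 158 with 1 library left out. Between SMOC2 normal and WT normal (5) they became 172 with DESeq2, 12 without a filter, 9 with limma-voom, 8 with only the libraries compared, 8 without scaling factors, and 4 to 21 with 1 library left out. For the difference of obstruction effects (0, with 1154 genes at an unadjusted p under 0.05) they became 25 with DESeq2, 1 without a filter, 1 with the replicate block, and 0 to 2 with 1 library left out. The cause was not tested. Leaving out 1 library turned the sign of uncalled values: Fabp4 in WT kidneys ran from −0.13 to 0.14, Slc16a6 in SMOC2 kidneys from −0.077 to 0.13, and Smoc2 in normal kidneys from −0.55 to 0.43. With transcript lengths Acadm held 35.7% of its family in SMOC2 UUO, 70.9% in SMOC2 normal, 43.0% in WT UUO and 72.8% in WT normal kidneys. Same-numbered libraries correlated by −0.09 to 0.17, so the numbers were not taken as pairs, and the replicate block changed no call of a member. Of the other genes named for the obstruction comparisons, Creb3l3 (1.42, adjusted p = 0.0417) and Scd2 (0.37, adjusted p = 0.0289) in WT kidneys and Pparg in SMOC2 kidneys (0.78, adjusted p = 0.0437) passed the test with the block. Mlxipl between SMOC2 UUO and WT UUO kidneys did not (0.51, adjusted p = 0.0613). Low counts limit Acsm3, Cpt1b, Bbox1 and Creb3l3.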
